A study of Homo sapiens with 6 samples.

Results

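The immediate early and ERK feedback genes are 36 genes chosen by name: AP-1 subunits, EGR, NR4A and KLF transcription factors, the factor SRF, the ETS factors ETV4 and ETV5, dual-specificity phosphatases, Sprouty and SPRED proteins, IER genes and mRNA decay factors. All 36 were found, by Entrez gene ID, among the 28395 genes of the count table. RNA came from TC28a2 cells, an immortalised human chondrocyte line, 48 hours after transfection with an FAP overexpression vector (3 libraries) or a control vector (3 libraries), and was profiled by DRUG-seq, in which many barcoded samples share 1 cheap RNA-seq library preparation. FAP (fibroblast activation protein) is a cell surface protease best known from activated fibroblasts and tumour stroma. Both groups had been transfected, and neither untransfected cells nor other times were part of the design. Whether the 3 replicates of a group were grown as separate cultures is not in the labels, and the spread behind each p-value may therefore be technical. In such bulk RNA, fewer expressing cells and less RNA per cell cannot be told apart.

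Immediate early genes are transcribed within minutes of a stimulus from factors already present in the cell. Growth factor receptors act through RAS, RAF and MEK on the kinase ERK, which phosphorylates ELK1, a partner of SRF at the CArG boxes of genes such as FOS and EGR1. The products then act in turn: AP-1 dimers of FOS and JUN proteins drive collagenase and other protease genes in chondrocytes and fibroblasts, while dual-specificity phosphatases, Sprouty and SPRED proteins damp the kinase cascade. Levels of DUSP4, DUSP6, SPRY2, SPRY4, ETV4, ETV5 and PHLDA1 are widely used as a readout of sustained ERK activity.

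FAP itself had 1396, 3182 and 4733 counts in the FAP libraries, against 0, 11 and 5 counts in the control libraries (log2 fold change 8.80, SE 0.30, adjusted p = 4.23e-14), so the libraries matched their labels at this gene. Library totals ran from 6275038 to 13839743 counts in the FAP group and from 5736056 to 12446373 counts in the control group. FAP replicate 3 stood apart from the other FAP libraries (chi-square per degree of freedom of 17.5 and 16.7, against 6.06 between replicates 1 and 2). Values without it are given below for DUSP4 and for named genes whose call changed. Without it the log2 fold change also changed sign for FOS (0.022), FOSL1 (0.0102), FOSL2 (-0.0114) and ZFP36 (-0.00886). Of the defining chondrocyte markers, SOX9 had 124 to 603 counts per library, while ACAN and COL2A1 had at most 15 and 4. COL9A1 and COMP had at most 1 and 3, and COL11A2 and MATN3 at most 21 and 11. The mesenchymal markers were higher: COL1A1 had 2375 to 9897 counts per library, VIM 8695 to 25618 and TWIST1 59 to 156. The epithelial, endothelial and leukocyte markers EPCAM, CDH1, CDH5 and PTPRC had at most 4 counts in any library. CD68, a macrophage marker that other cells also express, had 88, 240 and 214 counts in the FAP libraries, against 90, 155 and 190 in the controls (log2 fold change -0.03). Of the 2 endothelial markers, PECAM1 had 12, 20 and 24 counts in the FAP libraries, against 1, 4 and 9 in the controls, while CDH5 had 0 counts in all 6 libraries.

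The start sites of 26 of the 36 members have windows in RefSeq's promoter table (GRCh38.p14, from 250 bases before to 50 bases after the start). ARC, DUSP4, DUSP5, EGR3, ETV4, ETV5, FOSL1, IER3, KLF10 and NR4A2 have none there. The windows below are those of KLF2 and MAFF, the members with the largest differences that have a window, of SRF and EGR1, which carry CArG boxes, and of JUNB, the member with the highest log2 fold change. Each is written 5′ to 3′ in the direction of transcription. Capitals mark matches on either strand to any of 8 motifs. CArG boxes and MEF2 sites were searched by their usual patterns. The cyclic AMP response element was searched as TGACGTCA, and the AP-1 site of the FOS and JUN proteins was searched as TGANTCA. The site of EGR proteins was searched as GCGTGGGCG. For ETS factors such as ETV4 and ETV5 the letters were CCGGAAG, and the general promoter elements were the CCAAT box and the GC box GGGCGG. The KLF2 window is chr19:16324576-16324875 on the plus strand, MAFF (the first of 2 windows) is chr22:38201744-38202043 on the plus strand, SRF (the first of 2 windows) is chr6:43171019-43171318 on the plus strand, EGR1 is chr5:138465229-138465528 on the plus strand, and JUNB is chr19:12791236-12791535 on the plus strand.
KLF2: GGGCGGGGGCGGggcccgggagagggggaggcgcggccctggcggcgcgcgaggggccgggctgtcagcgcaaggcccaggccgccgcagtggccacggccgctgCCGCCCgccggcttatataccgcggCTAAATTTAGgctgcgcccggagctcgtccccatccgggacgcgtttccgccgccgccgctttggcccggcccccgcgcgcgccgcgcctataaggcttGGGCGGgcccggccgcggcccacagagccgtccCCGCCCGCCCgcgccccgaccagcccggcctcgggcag
MAFF: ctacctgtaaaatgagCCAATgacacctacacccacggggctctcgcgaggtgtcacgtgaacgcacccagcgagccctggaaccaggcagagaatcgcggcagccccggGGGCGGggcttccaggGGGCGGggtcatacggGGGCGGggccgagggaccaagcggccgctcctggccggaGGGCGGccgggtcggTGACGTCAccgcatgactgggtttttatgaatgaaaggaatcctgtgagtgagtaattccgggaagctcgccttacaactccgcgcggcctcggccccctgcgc
SRF: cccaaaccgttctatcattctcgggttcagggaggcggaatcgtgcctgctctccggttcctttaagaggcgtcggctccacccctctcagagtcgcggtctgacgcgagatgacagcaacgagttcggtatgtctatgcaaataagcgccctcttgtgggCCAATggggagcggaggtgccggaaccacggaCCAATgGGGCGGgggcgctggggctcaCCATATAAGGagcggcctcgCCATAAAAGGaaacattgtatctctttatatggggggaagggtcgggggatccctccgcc
EGR1: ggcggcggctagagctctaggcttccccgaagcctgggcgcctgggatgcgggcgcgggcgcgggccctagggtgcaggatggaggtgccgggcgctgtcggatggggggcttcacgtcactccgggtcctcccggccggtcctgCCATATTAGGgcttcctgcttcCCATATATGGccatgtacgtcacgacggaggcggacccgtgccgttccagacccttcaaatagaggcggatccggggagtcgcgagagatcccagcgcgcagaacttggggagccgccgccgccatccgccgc
JUNB: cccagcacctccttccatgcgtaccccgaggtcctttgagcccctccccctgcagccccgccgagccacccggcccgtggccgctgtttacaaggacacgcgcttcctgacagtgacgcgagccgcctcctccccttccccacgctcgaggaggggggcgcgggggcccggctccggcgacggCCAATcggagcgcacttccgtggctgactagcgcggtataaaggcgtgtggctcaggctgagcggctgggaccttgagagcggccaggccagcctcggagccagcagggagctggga

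In the KLF2 window the capitals hold a MEF2 site starting 120 bases before the start site and 6 GC boxes, of which those starting at positions 13 and 17 overlap each other. MEF2 factors are known to drive KLF2 downstream of the kinase ERK5. The MAFF window carried a cyclic AMP response element 54 bases before its start, with 4 GC boxes and a CCAAT box. SRF, whose product binds its own promoter, carried CArG boxes 30 and 10 bases before its start, and EGR1 carried CArG boxes 105 and 83 bases before its start. JUNB held only a CCAAT box. Over all 35116 windows of the table, 1.29% held a CArG box, 2.99% a MEF2 site, 1.85% the cyclic AMP response element, 7.71% an AP-1 site, 0.795% an EGR site, 10.3% the ETS site, 34.6% a CCAAT box and 45% a GC box. Of the 26 members with a window, a CArG box was found in EGR1, EGR2 and SRF, a MEF2 site in JUN and KLF2, the cyclic AMP response element in DUSP1, JUND, MAFF and ZFP36L1, an AP-1 site in FOSL2 and the ETS site in IER2. No EGR site was found, a CCAAT box was found in 10 members and a GC box in 21. Counted by window, as the shares over all windows are, 24 of the 34 member windows held a GC box and 10 a CCAAT box. A match is a description of these letters, not of binding, and bases outside the windows were not searched. FOS, for example, had no CArG box inside its window, which says nothing of bases further away.

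The comparison is between cells given the FAP vector and cells given the control vector. Levels are CPM (read counts scaled to the library size, with TMM factors), and differences are log2 fold changes of FAP minus control with standard errors (SE). Adjusted p-values come from the edgeR quasi-likelihood test across the 13373 genes left by the low-count filter. Of the 36 members 31 passed that filter. None of the 31 was called at an adjusted p under 0.05, against 0.224% of all tested genes (30, of which 13 were higher and 17 lower). The smallest adjusted p among members was 0.0779, for KLF2. DESeq2 also called none of the 22 members to which it gave an adjusted p, against 1.17% of the 8276 genes that received one. At an unadjusted p under 0.05, 6 members lay lower in the FAP libraries and 1 lay higher, against 5.30% and 4.61% of all tested genes.

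Most members nevertheless lay a little lower in the FAP libraries. Of the 31 tested, 23 had a log2 fold change below 0, against 49.3% of all tested genes, and the median was -0.17, against 0.00 over all tested genes. In 9 members every FAP library lay below every control library, against 7.99% of all tested genes, and no member was separated in the other direction, against 7.96%. The differences were small: 26 of the 31 lay within 0.3 of 0 on the log2 scale, and the range ran from -0.81 for KLF2 to 0.28 for JUNB. Summed over all 36 members, the level was 1590, 1563 and 1479 CPM in the FAP libraries, against 1714, 1714 and 1729 CPM in the control libraries. The control sums lay within a narrow range and all 3 FAP sums lay below it. Such a sum is weighted by the most abundant members, ZFP36L1 and PHLDA1 first, and does not describe each member. The members were picked with earlier results of these data known, and no test was made over the list.

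**Figure D1:**
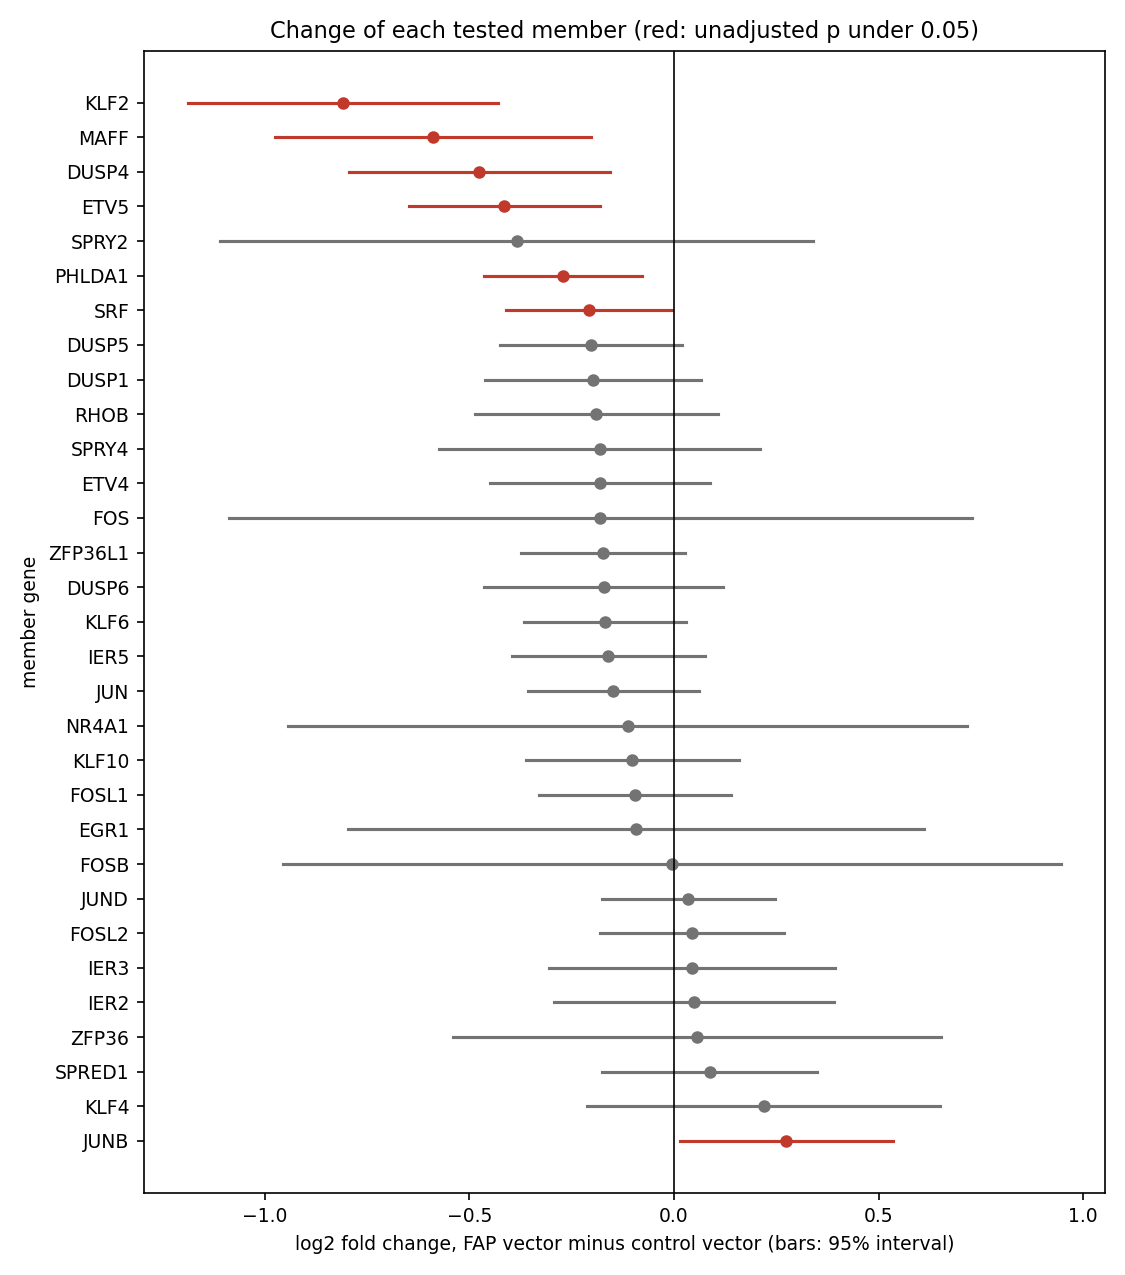
Log2 fold change of each tested member (horizontal axis, FAP vector minus control vector) with its 95% interval, members ordered from the lowest to the highest; red marks an unadjusted p under 0.05. KLF2 at -0.81 stands lowest and JUNB at 0.28 highest, and most other intervals include 0.

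Among the KLF zinc finger factors, KLF2 showed the largest difference of all members. KLF2 (Entrez 10365; GRCh38.p14 chromosome 19, 16324826 to 16328685), best known from endothelial and T cell quiescence, was at 7.5, 9.32 and 7.71 CPM in the FAP libraries, against 14.2, 14.97 and 14.2 CPM in the controls. The groups did not overlap and the controls lay within 1 CPM of each other. The log2 fold change was -0.81 (SE 0.18, 95% interval -1.19 to -0.43, adjusted p = 0.0779). KLF2 passed in the fit with no low-count filter, which called 0.718% of its 21180 genes (adjusted p = 0.0107). It also passed in the fit without FAP replicate 3, which called 1.86% of its 13305 genes (log2 fold change -0.76, adjusted p = 0.0449). Its direction held in all alternatives tried, with log2 fold changes between -0.92 and -0.68.

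The other KLF members differed less. KLF6, a factor expressed in most tissues, was at 105, 112 and 112 CPM in the FAP libraries, against 120, 123 and 127 CPM in the controls (log2 fold change -0.17, SE 0.09, adjusted p = 0.575), again without overlap. KLF10, a target of TGF-beta signalling, averaged 32.2 ± 3.72 CPM in FAP libraries and 34.6 ± 2.32 CPM in controls (SD, n = 3 each; -0.10, SE 0.12). KLF4, a reprogramming factor, had a positive value, with 10.1 ± 1.14 CPM in FAP libraries and 8.78 ± 1.67 CPM in controls (0.22, SE 0.21), and the groups overlapped. Its 95% interval ran from -0.21 to 0.65.

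Of the AP-1 subunits, MAFF and JUNB had an unadjusted p under 0.05. MAFF (Entrez 23764; chromosome 22, 38201994 to 38216511), a small MAF protein that pairs with other leucine zipper factors, was at 7.98, 9.03 and 11.3 CPM in the FAP libraries, against 15.2, 13.0 and 15.1 CPM in the controls. All FAP libraries lay below the controls (log2 fold change -0.59, SE 0.19, unadjusted p = 0.00466, adjusted p = 0.279). JUNB (Entrez 3726; chromosome 19, 12791486 to 12793315), a weaker activator than JUN that can oppose it, was at 42.0, 45.6 and 35.4 CPM in the FAP libraries, against 35.8, 34.4 and 31.7 CPM in the controls. FAP replicate 3 lay inside the control range, so the groups overlapped (0.28, SE 0.12, unadjusted p = 0.0394, adjusted p = 0.469). Reads of MAFF and TMEM184B (44.2 CPM, log2 fold change 0.16) and of JUNB and HOOK2 (4.86 CPM) could be mixed, since the annotated genes overlap and it is not known whether counting used strand.

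The remaining JUN proteins showed no difference beyond their spread. JUN was at 85.4, 87.8 and 92.0 CPM in the FAP libraries, against 103, 89.3 and 102 CPM in the controls (log2 fold change -0.15, SE 0.10, 95% interval -0.36 to 0.06). JUND, the subunit most often present in resting cells, was at 83.1, 84.6 and 82.9 CPM in the FAP libraries, against 78.7, 89.5 and 76.4 CPM in the controls (0.03, SE 0.10). The summed level of JUN, JUNB and JUND was 213 ± 4.38 CPM in FAP libraries and 214 ± 4.03 CPM in controls (SD, n = 3 each), with overlapping groups.

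The FOS proteins were represented mainly by FOSL1 and FOSL2, the FRA proteins of cells with sustained ERK activity. FOSL1 was at 97.5, 86.2 and 72.6 CPM in the FAP libraries, against 96.8, 85.2 and 91.2 CPM in the controls, and FAP replicate 3 alone lay below the control range (log2 fold change -0.10, SE 0.11, 95% interval -0.33 to 0.14). FOSL2 was at 54.7, 53.3 and 60.0 CPM in the FAP libraries, against 53.3, 58.0 and 51.8 CPM in the controls (0.04, SE 0.11). FOS and FOSB, the classic early subunits, were near the lower limit of measurement. FOS had 7, 42 and 19 counts in the FAP libraries, against 11, 18 and 31 in the controls, and FOSB had 5, 36 and 32 against 9, 16 and 32. Their 95% intervals, -1.09 to 0.73 for FOS and -0.95 to 0.95 for FOSB, are wide in both directions.

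**Figure D2:**
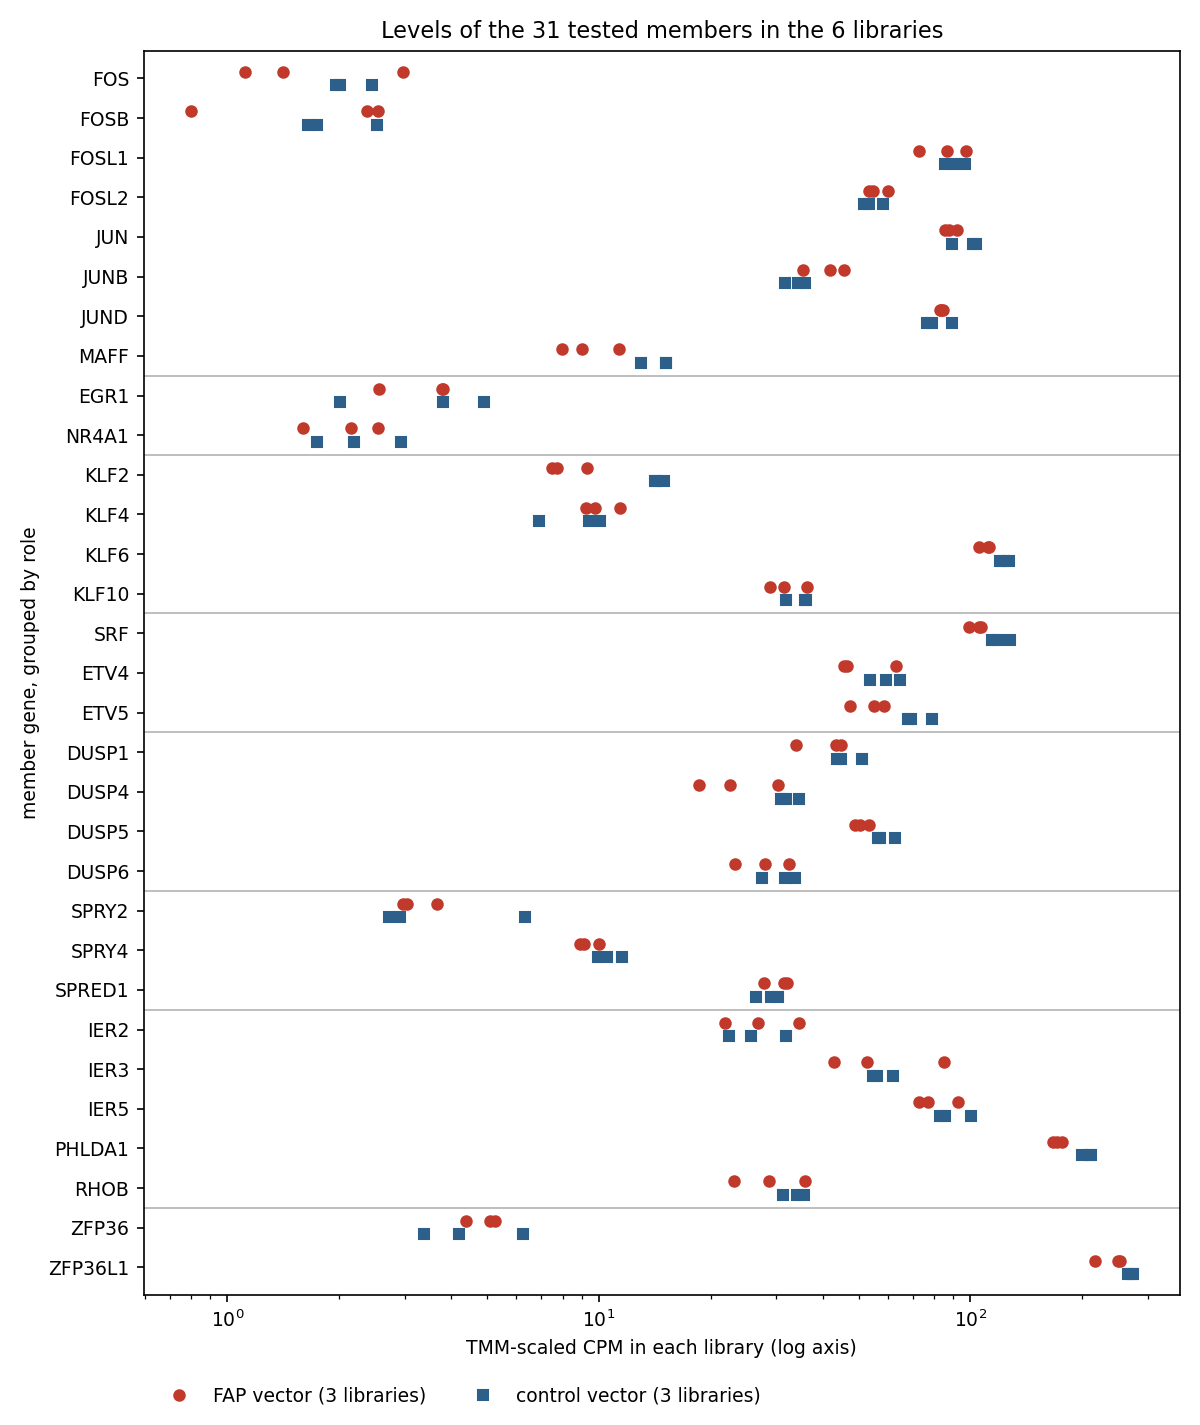
TMM-scaled CPM of the 31 tested members in each library (log axis), circles for the 3 FAP vector libraries and squares for the 3 control vector libraries, with horizontal lines between roles. KLF2, MAFF, ETV5 and PHLDA1 show separate groups, while FOS, FOSB, EGR1 and NR4A1 lie below 5 CPM with overlapping points.

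The EGR and NR4A factors, the other classic early genes, were scarce in both groups. EGR1 had 16, 54 and 51 counts in the FAP libraries, against 11, 45 and 48 in the controls (log2 fold change -0.09, SE 0.34). NR4A1, an orphan nuclear receptor, had 10, 36 and 29 counts in FAP libraries, against 12, 16 and 37 in controls (-0.11, SE 0.40). The other 3 of these factors did not pass the filter, together with ARC, a cytoskeletal protein of neurons. NR4A3 had 1, 4 and 2 counts in the FAP libraries, against 2, 10 and 8 in the controls, and NR4A2 had 4, 6 and 6 against 0, 6 and 6. EGR2 had 1, 0 and 0 counts against 0, 5 and 1, EGR3 had 0, 1 and 0 against 0, 0 and 7, and ARC had 0, 1 and 0 against 1, 2 and 10. Control replicate 3 held most of the EGR3 and ARC counts. For NR4A3 and ARC every FAP library lay below every control in CPM, at levels of at most 1.09 CPM. The share of genes below the filter that are separated in this way was not taken. For ARC the counts do not resolve it. Control replicates 1 and 2, at 0.183 and 0.2185 CPM, lay below the 0.479 CPM that a count of 0 allows in FAP replicate 1. None of these 5 genes was called in the fit with no low-count filter. A count of 0 allows up to 0.479, 0.212 and 0.222 CPM in the 3 FAP libraries and up to 0.548, 0.328 and 0.237 CPM in the 3 controls (counting error only).

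Among SRF and the ETS factors ETV4 and ETV5, the smallest p was that of ETV5. ETV5 (Entrez 2119; chromosome 3, 186046314 to 186109089), which is induced by FGF and ERK signalling, was at 47.4, 55.1 and 58.4 CPM in the FAP libraries, against 69.0, 78.8 and 67.7 CPM in the controls. The groups were separate (log2 fold change -0.41, SE 0.11, 95% interval -0.65 to -0.18, adjusted p = 0.179). Without FAP replicate 3 it passed (-0.48, adjusted p = 0.0162), in a fit that called 1.86% of the genes it tested. ETV4, its close relative, was at 46.6, 63.2 and 45.7 CPM in the FAP libraries, against 59.2, 64.5 and 53.7 CPM in the controls, with overlapping groups (-0.18, SE 0.13). ETV4 shares most of its annotated span with DHX8 (48.5 CPM, log2 fold change 0.00), so its counts are uncertain. SRF (Entrez 6722; chromosome 6, 43171269 to 43181506) was at 99.1, 107 and 106 CPM in the FAP libraries, against 128, 119 and 114 CPM in the controls. Every FAP library lay below every control (-0.21, SE 0.10, unadjusted p = 0.0447, adjusted p = 0.485).

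All 4 dual-specificity phosphatases, which remove the activating phosphates from ERK and related kinases, had negative values. DUSP4 (Entrez 1846; chromosome 8, 29333064 to 29350684), a nuclear phosphatase, was at 30.3, 22.5 and 18.6 CPM in the FAP libraries, against 30.9, 34.6 and 31.8 CPM in the controls. FAP replicate 1 lay just under the lowest control, and FAP replicate 3 was the lowest of all (log2 fold change -0.48, SE 0.15, unadjusted p = 0.00544, adjusted p = 0.288). Leaving out FAP replicate 1 gave -0.66 (adjusted p = 0.0536) and leaving out FAP replicate 3 gave -0.33. DUSP5, a nuclear phosphatase specific for ERK, was at 50.4, 53.3 and 48.8 CPM in the FAP libraries, against 62.6, 56.3 and 57.2 CPM in the controls (-0.20, SE 0.11, adjusted p = 0.548), without overlap. DUSP6, the cytoplasmic ERK phosphatase, averaged 27.9 ± 4.59 CPM in FAP libraries and 31.04 ± 3.20 CPM in controls (-0.17, SE 0.14), and DUSP1, induced by stress as well as growth factors, 40.9 ± 5.96 and 46.5 ± 4.03 CPM (-0.20, SE 0.13; SD, n = 3 each). The groups overlapped for both. The summed level of the 4 was 157, 144 and 129 CPM in the FAP libraries, against 169, 163 and 174 CPM in the controls, with the groups separate.

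The Sprouty and SPRED proteins, which act on the cascade near RAS and RAF, did not share a direction. SPRY4 averaged 9.33 ± 0.592 CPM in FAP libraries and 10.7 ± 0.791 CPM in controls (log2 fold change -0.18, SE 0.19; SD, n = 3 each). SPRY2 was at 3.67, 2.96 and 3.04 CPM in the FAP libraries, against 2.92, 2.73 and 6.33 CPM in the controls (-0.38, SE 0.35). Its negative value came from control replicate 3 alone, and without that library it was 0.18. SPRED1 averaged 30.5 ± 2.33 CPM in FAP libraries and 28.6 ± 1.97 CPM in controls (0.09, SE 0.13).

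PHLDA1 (Entrez 22822; chromosome 12, 76025447 to 76031776), a pleckstrin homology protein induced by receptor tyrosine kinases, was at 176, 171 and 167 CPM in the FAP libraries, against 200, 211 and 209 CPM in the controls. The SD was 4.66 CPM among FAP libraries and 5.98 CPM among controls, and the groups did not overlap (log2 fold change -0.27, SE 0.09, unadjusted p = 0.00842, adjusted p = 0.321). ZFP36L1, which binds AU-rich elements and destabilises immediate early mRNAs, was at 250, 253 and 217 CPM in the FAP libraries, against 265, 273 and 273 CPM in the controls (-0.17, SE 0.10, adjusted p = 0.566), also without overlap. Its relative ZFP36 averaged 4.91 ± 0.473 CPM in FAP libraries and 4.61 ± 1.48 CPM in controls (0.06, SE 0.29).

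The IER genes and RHOB had overlapping groups. IER3, a stress and survival gene, was at 84.7, 52.6 and 43.0 CPM in the FAP libraries, against 61.7, 56.0 and 54.6 CPM in the controls (log2 fold change 0.04, SE 0.17). FAP replicate 1 lay above all controls and FAP replicates 2 and 3 below them. IER5 was at 92.4, 76.7 and 72.8 CPM in the FAP libraries, against 82.7, 85.3 and 100 CPM in the controls (-0.16, SE 0.11). IER2 averaged 27.7 ± 6.47 CPM in FAP libraries and 26.7 ± 4.86 CPM in controls (0.05, SE 0.16), and RHOB, an immediate early small GTPase, 29.2 ± 6.38 and 33.7 ± 2.23 CPM (-0.19, SE 0.14; SD, n = 3 each).

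**Figure D3:**
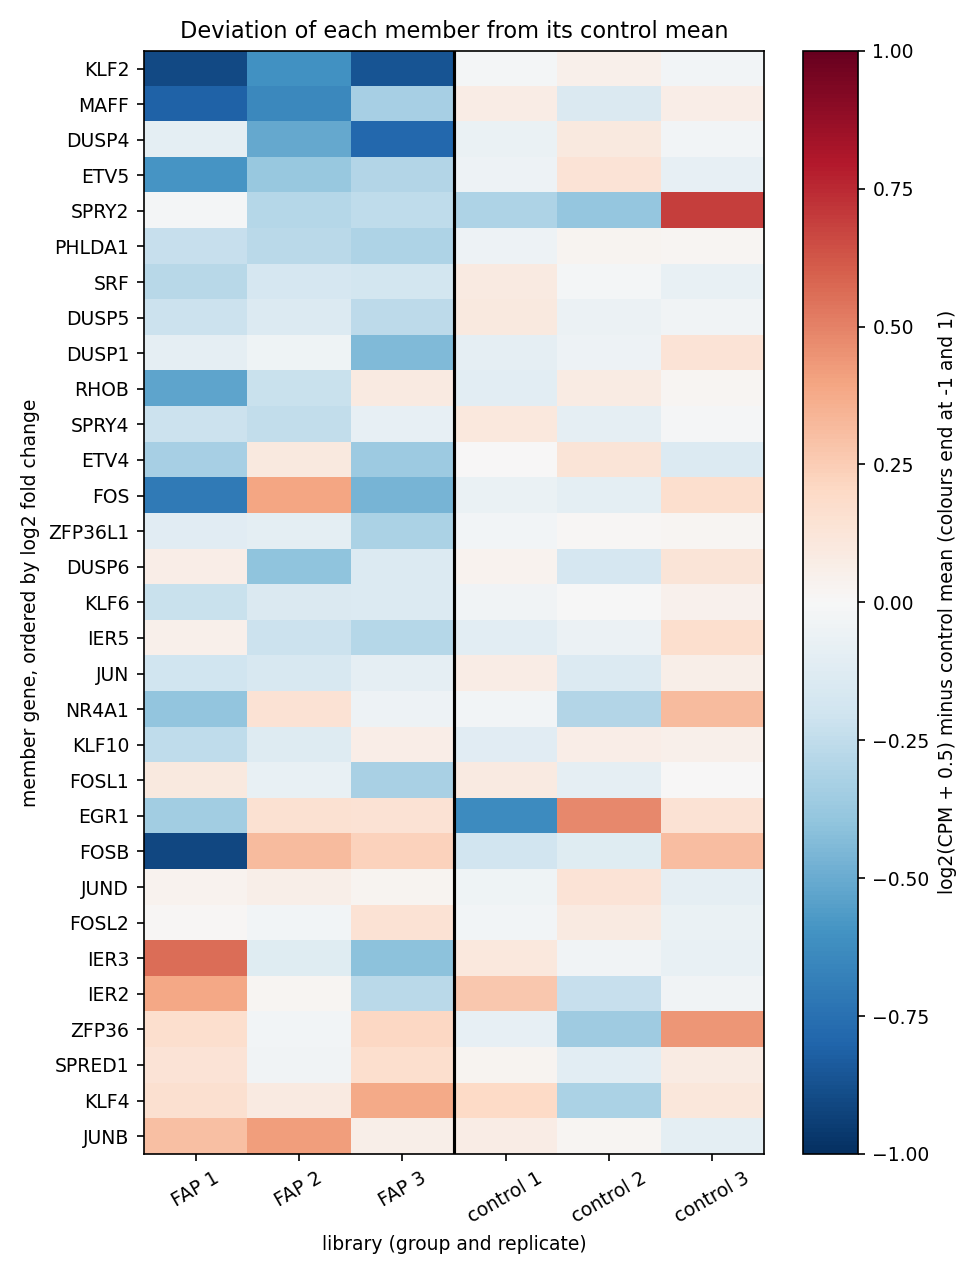
Deviation of each tested member from its control mean, as log2(CPM + 0.5), in the 3 FAP vector libraries (left of the line) and the 3 control vector libraries (right); blue is below and red above the control mean. The upper rows, from KLF2 to ETV5, are blue in all 3 FAP libraries, whereas IER3 and IER2 are red in FAP replicate 1 and blue in FAP replicate 3.

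The 3 FAP libraries were alike in the share of members that lay below the control mean on the log2(CPM + 0.5) scale: 20 of 31 in FAP replicate 1, 22 in replicate 2 and 21 in replicate 3. The counts in the controls, which set that mean, were 18, 19 and 12. The median deviation was -0.20, -0.12 and -0.19 in the FAP libraries, against -0.03, -0.05 and 0.02 in the controls. FAP replicates 1 and 3 were the lowest library for 11 and 10 of the 31 members, FAP replicate 2 for 2, and the controls for 1, 4 and 3. The median fold change of the members was -0.14 without FAP replicate 3 and -0.09 without control replicate 3.

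Values of genes upstream of ERK lay on both sides of 0. With edgeR and the low-count filter, none of 10 growth factor ligands, 14 receptor tyrosine kinases, 29 RAS, RAF, MEK and ERK cascade genes and 12 RAS and RAF brakes tested was called. The median log2 fold changes were -0.06, -0.01, -0.01 and -0.05, beside 0.00 over all tested genes. Values below 0 were found in 5, 7, 16 and 7 genes, against 49.3% of all tested genes. At an unadjusted p under 0.05, 1, 1, 2 and 1 genes lay lower and 1, 0, 3 and 1 higher. HBEGF, an EGF receptor ligand that ERK itself induces, had the smallest p of these lists, with 59.3 ± 13.3 CPM in FAP libraries and 89.3 ± 12.1 CPM in controls (-0.57, SE 0.14, adjusted p = 0.11). PDGFA was at 0.26, the receptors EPHA2 and AXL at -0.31 and 0.44, the kinases MKNK2 and RPS6KA5 at 0.32 and -0.69, and the brakes PEA15 and CBL at -0.29 and 0.31 (adjusted p from 0.294 to 0.523 for these 7). The value of AXL was -0.09 without FAP replicate 2. HBEGF passed with DESeq2 (-0.58, adjusted p = 0.027), once FAP replicate 3 was left out (-0.7, adjusted p = 2.46e-04) and once the low-count filter was dropped (adjusted p = 3.31e-04). AXL passed when FAP replicate 3 was left out (0.64, adjusted p = 0.0109) or the filter dropped (adjusted p = 0.0087), and MKNK2 passed without FAP replicate 3 (0.44, adjusted p = 0.00613). Of the genes each fit tested, 1.17% were called with DESeq2, 1.86% without FAP replicate 3 and 0.718% without the filter. Of 11 ternary complex and MRTF factors tested none was called (median 0.05). ELK1, the ERK substrate that joins SRF at CArG boxes, was at -0.34 (SE 0.11, adjusted p = 0.295) and MRTFA, the actin-regulated partner of SRF, at 0.34 (SE 0.15, adjusted p = 0.461).

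Of 33 other immediate early genes tested none was called, 19 had values below 0, against 49.3% of all tested genes, and the median was -0.09. At an unadjusted p under 0.05, 8 of them lay lower and 3 higher, against 5.30% and 4.61% of all tested genes, and 6 were separated lower and 2 higher, against 7.99% and 7.96%. PLK3, a stress kinase, had 10.5 ± 0.688 CPM in FAP libraries and 16.3 ± 2.72 CPM in controls (log2 fold change -0.61, SE 0.18, adjusted p = 0.216), and CCN2, a matricellular protein, 87.5 ± 12 and 115 ± 10.1 CPM (-0.39, SE 0.11, adjusted p = 0.216; SD, n = 3 each). Of 10 other AP-1 partners none was called (median 0.00), the repressor JDP2 being at 0.77 (SE 0.25, adjusted p = 0.295) and MAF at 0.40. Of 15 further phosphatase, Sprouty and feedback genes none was called (median 0.04), DUSP3 being at -0.27 and SPRED2 at 0.44. Among 20 contractile targets of SRF and MRTF 9 had values below 0 and the median was 0.01. At an unadjusted p under 0.05, 3 of them lay lower and 0 higher, and 4 were separated lower and 2 higher. CCN1 and CCN2 are in this list and also among the other immediate early genes. ANKRD1, a cardiac and mesenchymal ankyrin repeat protein, had 435 ± 76.3 CPM in FAP libraries and 613 ± 82.2 CPM in controls (-0.49, SE 0.12, adjusted p = 0.131). ANKRD1 passed with DESeq2 (-0.49, adjusted p = 0.0136) and when FAP replicate 3 was left out (-0.64, adjusted p = 8.79e-05) or the filter dropped (adjusted p = 0.00125), and CCN2 passed without FAP replicate 3 (-0.46, adjusted p = 0.0134). As above, these fits called 1.17%, 1.86% and 0.718% of the genes they tested.

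Among genes that ERK and AP-1 are known to drive, PLAUR and MMP1 were called lower, 2 of 21 tested, against 0.224% of all tested genes called in either direction. The other 19 did not pass. Like the other lists here, this list was chosen with earlier results of these data known. Its shares are a description of the list and no independent support. Values below 0 were found in 20 of the 21, against 49.3% of all tested genes, with a median of -0.30, and in 10 every FAP library lay below every control, against 7.99%. Some values were near 0, as for HMGA1 (-0.01) and the growth factor VEGFA (-0.04), and that of the matrix protein TNC was above it (0.19); these 3 were picked after their values were seen. PLAUR, the urokinase receptor, fell to 80.3 ± 1.33 CPM in FAP libraries, against 116 ± 5.46 CPM in controls (log2 fold change -0.53, SE 0.10, adjusted p = 0.0264). MMP1, interstitial collagenase, fell to 7.98 ± 0.927 CPM in FAP libraries, against 17.6 ± 5.80 CPM in controls (-1.10, SE 0.21, adjusted p = 0.0341; SD, n = 3 each). The PLAUR call was lost with library totals and without FAP replicate 2 or any single control (adjusted p from 0.0636 to 0.232). The MMP1 call was lost with library totals, with limma-voom, in thinned counts, and without FAP replicate 2, control replicate 1 or control replicate 3 (adjusted p from 0.0567 to 0.278). A list of 10 genes often used as a readout of ERK output had values below 0 in all 9 tested genes (median -0.27), none of them called. It shares 7 of its 10 genes with the members and is therefore no separate observation.

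**Figure D4:**
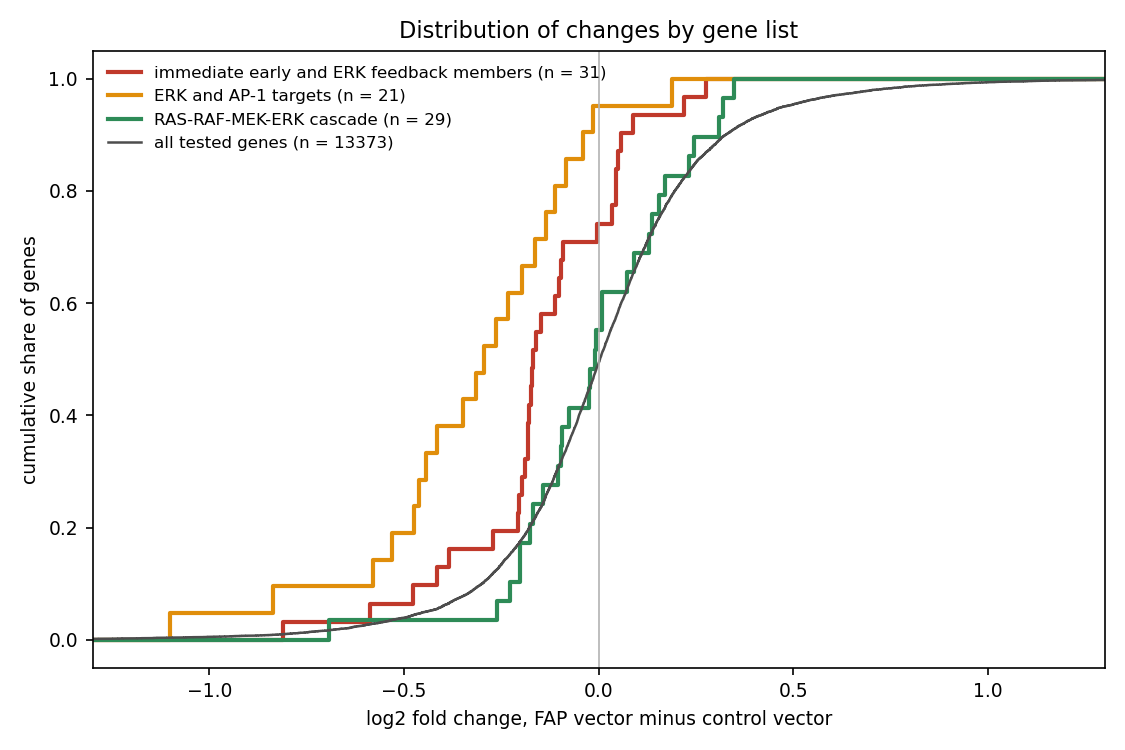
Cumulative share of genes (vertical axis) by log2 fold change of FAP vector minus control vector (horizontal axis) for the 31 tested members, 21 ERK and AP-1 targets, 29 cascade genes and all 13373 tested genes. The members (median -0.17) and the targets (median -0.30) lie left of all tested genes, and the cascade (median -0.01) lies on them.

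The 7 members with an unadjusted p under 0.05 kept their direction in every fit tried. Values ran from -0.74 to -0.50 for MAFF, from -0.48 to -0.34 for ETV5, from -0.66 to -0.33 for DUSP4, from -0.29 to -0.22 for PHLDA1, from -0.25 to -0.15 for SRF and from 0.18 to 0.38 for JUNB. The lowest adjusted p over these fits was 0.0503 for MAFF, 0.123 for PHLDA1, 0.13 for JUNB and 0.349 for SRF. The highest was 0.376 for KLF2, 0.641 for MAFF, 0.683 for ETV5 and 0.744 for DUSP4. It was 0.749 for PHLDA1, 0.7855 for JUNB and 0.808 for SRF.

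**Figure D5:**
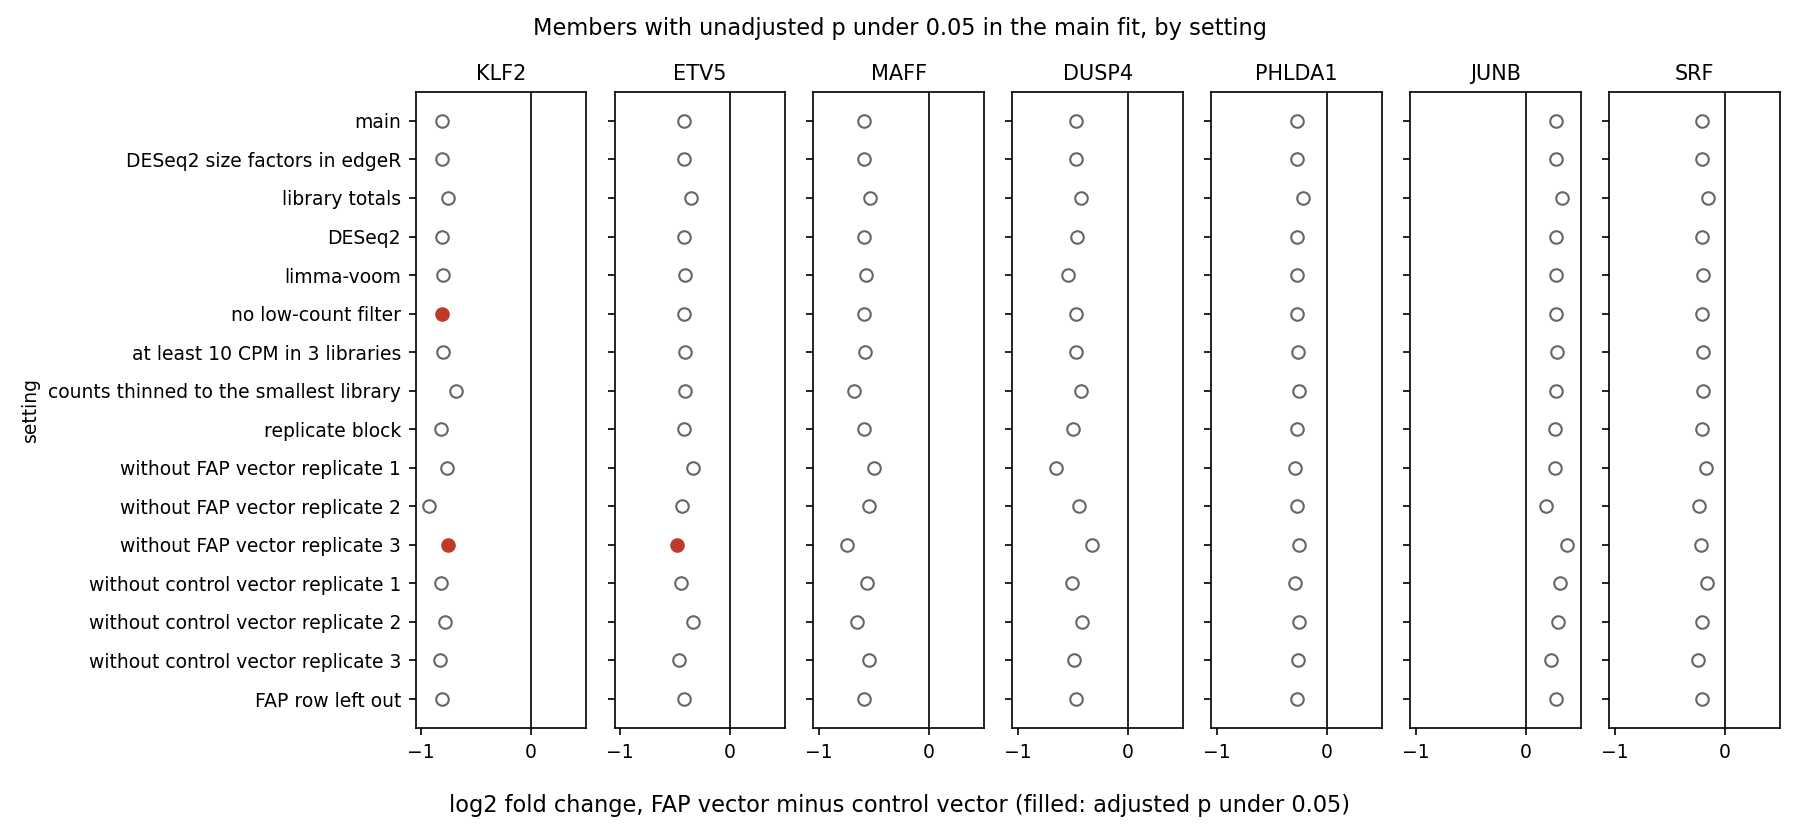
Log2 fold change (horizontal axes, FAP vector minus control vector) of the 7 members with an unadjusted p under 0.05, in the main fit and each alternative fit (rows); filled points had an adjusted p under 0.05. Filled points occur for KLF2 with no low-count filter and without FAP vector replicate 3, and for ETV5 without FAP vector replicate 3.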

How the data were processed

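The authors deposited 1 table of read counts by Entrez gene ID for the 6 libraries, as whole numbers without normalization. Per the submitters' processing notes, HISAT2, featureCounts and Subread were used with GRCh38. Their versions and settings (strand, multiple alignments, molecular identifiers) were not given in the sources used here. Without identifiers amplification copies count as separate reads, so count floors cover counting error only. Symbols and coordinates came from RefSeq's GRCh38.p14 gene table (27745 of 28395 IDs matched). Column names gave group and replicate number.

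Counts were tested with edgeR 4.0.16 in R 4.3.3 (TMM, filterByExpr by group with minimum count 10 and minimum total 15, two-sided quasi-likelihood F test, no covariate), with Benjamini-Hochberg adjustment over all 13373 tested genes. The SE is the size of the log2 fold change divided by the square root of F. Tests were checked on simulated data. Alternatives were DESeq2 1.42.0, limma-voom (limma 3.58.1), other size factors and filters, thinned counts, a threshold of 0.1, the FAP row left out, a replicate block, and fits that left out 1 library at a time.

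The members, pathway lists and motifs were chosen with earlier results of these data known. Tested members are given per library if their unadjusted p was under 0.05, their groups did not overlap or they were among the 12 with the highest mean CPM; each list is given with its called genes or, with none, its 2 smallest p-values. Same-numbered libraries had residual correlations of -0.07, 0.10 and -0.01 over 8666 genes, so the numbers were not taken to pair samples. Total counts did not differ by group beyond their spread (two-sided exact permutation test, p = 0.5, smallest possible 0.1). Figures were drawn with matplotlib 3.10.9.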

Additional observations from a re-analysis of the deposited data

How the results depend on the processing

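Over 16 alternatives, 432 of 457 log2 fold changes of single members kept their direction and their side of the threshold, 3 became called and 22 changed sign, in members within 0.4 of 0. Besides the main 30, the number of genes called was 19 with library totals, 97 with DESeq2, 152 with no low-count filter and 3 to 248 in fits that left out 1 library. Members called numbered 1 with no low-count filter and 1 at a threshold of 0.1 (KLF2 in both), 0 to 2 in fits that left out 1 library, and 0 in the other alternatives. The member median was -0.11 with library totals, which moved the median of all tested genes to 0.06, and -0.18 to -0.093 without 1 library. Members with an unadjusted p under 0.05 (counted after the data were seen) and higher numbered 0 with DESeq2, 0 in thinned counts and 0 to 1 without 1 library. Lower members at that threshold numbered 5 to 7 over the alternatives. The share of all genes that lay lower ran from 2.84% with DESeq2 to 6.78% without FAP replicate 3.

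Sign changes were FOSB at 0.047 with library totals, IER3 at -0.039 with limma-voom and -0.00417 with the replicate block, and NR4A1 at 0.058 in thinned counts. Without 1 library at a time, values ran from -0.74 to 0.022 for FOS, -0.24 to 0.28 for FOSB, -0.19 to 0.010 for FOSL1, -0.011 to 0.099 for FOSL2, -0.013 to 0.11 for JUND, -0.32 to 0.18 for EGR1, -0.28 to 0.14 for NR4A1, -0.61 to 0.18 for SPRY2, -0.11 to 0.20 for IER2, -0.26 to 0.24 for IER3, -0.13 to 0.39 for ZFP36 and -0.087 to 0.64 for AXL. The cause of these shifts was not tested.

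Replicate numbers were not taken to pair the samples, which the labels do not settle, and the replicate block called 44 genes and 0 members. Depth limits EGR2, EGR3, NR4A2, NR4A3 and ARC, and leaves wide intervals at FOS, FOSB, EGR1 and NR4A1.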

Other observations

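The make-up of small families was compared after their values had been seen, as ratios of counts within a library, which do not depend on the scaling between libraries. The ratios reuse the counts of members described above and are no separate observation. Adjustment over 7 ratios does not correct for choosing them after the values were seen. JUNB took 19.9%, 20.9% and 16.9% of the JUN, JUNB and JUND counts in the FAP libraries, against 16.4%, 16.2% and 15.1% in the controls. The groups were separate, with FAP replicate 3 close to the controls (exact permutation test, two-sided: p = 0.1, which is the lowest value 3 against 3 allow, adjusted p = 0.233 over 7 ratios). KLF2 took 4.95%, 5.76% and 4.61% of the counts of the 4 KLF members in the FAP libraries, against 8.07%, 8.28% and 7.61% in the controls (exact permutation p = 0.1, adjusted p = 0.233). Per count of KLF4 there were 0.771, 1.01 and 0.675 counts of KLF2 in the FAP libraries, against 1.42, 2.17 and 1.504 in the controls (exact permutation p = 0.1, adjusted p = 0.233).

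The other 4 ratios overlapped between groups. JUNB per JUN count averaged 0.465 ± 0.0708 in FAP libraries and 0.348 ± 0.0369 in controls (exact permutation p = 0.2, adjusted p = 0.28, SD, n = 3 each). DUSP4 per DUSP6 count averaged 0.857 ± 0.168 in FAP libraries and 1.06 ± 0.175 in controls (exact permutation p = 0.2, adjusted p = 0.28). ETV5 per ETV4 count averaged 1.06 ± 0.206 in FAP libraries and 1.22 ± 0.0481 in controls (exact permutation p = 0.4, adjusted p = 0.467). FOSL1 made up 58.6% ± 5.07 of the FOS family counts in FAP libraries and 60.8% ± 2.56 in controls (exact permutation p = 0.7, adjusted p = 0.7).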
